A study of Mus musculus with 6 samples.

Results

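The genes of the sarcomere and of the myosin family were examined in inguinal adipose tissue (iAT), the subcutaneous white fat depot of the groin, of mice at postnatal day 6. Members were taken by symbol. They are the genes named *Myh* or *Myl* with a number and at most 1 letter, those named *Tnnc*, *Tnni*, *Tnnt*, *Tpm*, *Actn*, *Myom*, *Mybpc* or *Myoz* with a number, and *Mybph*, *Acta1*, *Actc1*, *Ttn*, *Neb* and *Ckm*. The rule found 56 of the 19831 genes listed. Of these, 40 are known from striated muscle, 9 from non-muscle cells and 2 from smooth muscle, while 5 (*Tpm1*, *Tpm2*, *Tpm3*, *Myl6b* and *Myl10*) have products of more than 1 kind or were left unclassed. Total RNA of whole tissue was sequenced from 3 wild-type samples and 3 Npffr1-KO samples, in which the receptor gene *Npffr1* (for neuropeptide FF) is deleted. The study's methods name male C57BL/6 mice of this age without tying them to these samples. The sources used here do not give the cells targeted by the deletion or any pooling of animals, and nothing says whether the samples came from separate litters, so p-values measure the spread between these samples only. In bulk tissue, fewer cells of a type and less RNA per cell cannot be told apart.

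The sarcomere is the contractile unit of striated muscle. Thick filaments of myosin heavy chains (*Myh*), each with light chains (*Myl*) and held by myosin-binding proteins (*Mybpc*) and the M-band myomesins (*Myom*), slide along thin filaments of actin (*Acta1*, *Actc1*), tropomyosin (*Tpm*) and the calcium-sensing troponin complex (*Tnnc*, *Tnni*, *Tnnt*). α-Actinins (*Actn2*, *Actn3*) and the calsarcins (*Myoz*) sit in the Z-disc, titin (*Ttn*) and nebulin (*Neb*) act as molecular rulers, and muscle creatine kinase (*Ckm*) buffers ATP. Fast fibres, slow fibres, heart and newborn muscle each use their own paralogs. Cells of every kind move and divide with the non-muscle myosins *Myh9*, *Myh10* and *Myh14*, and vessel walls contract with *Myh11* and *Myl9*. Adipocytes build no sarcomeres.

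Stretches upstream of 5 members show short promoter words known from muscle genes. Each runs 5′ to 3′ from 250 bases before the RefSeq start, in build GRCm38.p6, and ends before the first base that GENCODE M21 annotates as exon. Capitals mark the E-box CAGCTG, the TATA box TATAAA, the CArG box bound by serum response factor and the MEF2 site. *Ckm* (chr7:19410844-19411024, plus strand) and *Myh1* (chr11:67199852-67200051, plus strand) are shown because library d, described below, held nearly all of their reads. *Acta1* (chr8:123894776-123895025, minus strand) and *Actc1* (chr2:114052888-114053125, minus strand) are the skeletal and cardiac actins, of which the former had the largest ratio of the authors' values among the members. *Myl9* (chr2:156775214-156775419, plus strand) stands for the smooth muscle members.
Ckm: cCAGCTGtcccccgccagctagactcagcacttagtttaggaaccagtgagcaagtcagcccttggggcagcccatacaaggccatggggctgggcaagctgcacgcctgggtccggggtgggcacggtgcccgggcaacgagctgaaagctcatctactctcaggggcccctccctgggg
Myh1: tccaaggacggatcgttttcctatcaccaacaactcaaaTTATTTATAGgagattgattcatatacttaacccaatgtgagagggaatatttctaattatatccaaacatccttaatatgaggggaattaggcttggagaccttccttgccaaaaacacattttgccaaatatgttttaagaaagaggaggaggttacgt
Acta1: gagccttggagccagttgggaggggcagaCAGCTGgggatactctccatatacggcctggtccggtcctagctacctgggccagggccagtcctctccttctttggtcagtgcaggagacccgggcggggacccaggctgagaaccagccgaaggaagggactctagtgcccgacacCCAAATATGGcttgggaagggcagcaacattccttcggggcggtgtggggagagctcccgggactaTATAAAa
Actc1: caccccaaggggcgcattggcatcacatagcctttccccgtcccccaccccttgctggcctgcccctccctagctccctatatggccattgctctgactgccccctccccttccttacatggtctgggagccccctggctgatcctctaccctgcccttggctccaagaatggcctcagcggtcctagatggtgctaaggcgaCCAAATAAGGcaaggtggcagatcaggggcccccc
Myl9: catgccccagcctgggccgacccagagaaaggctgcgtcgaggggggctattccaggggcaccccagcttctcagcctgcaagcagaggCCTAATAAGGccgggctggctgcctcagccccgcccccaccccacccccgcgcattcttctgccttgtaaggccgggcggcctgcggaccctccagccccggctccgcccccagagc

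The *Ckm* stretch holds an E-box starting 249 bases before the start. In *Myh1* a MEF2 site starts 211 bases before the start, and its letters overlap a TATAAA on the other strand. Another TATAAA of *Myh1*, 32 bases before the start, lies past the end of the stretch shown, in sequence annotated as exon. *Acta1* carries a CArG box 73 bases before the start, *Actc1* 1 at 47 bases and *Myl9* 1 at 161 bases. Windows of 250 bases were found in the RefSeq table for 48 of 56 members and searched on both strands. CArG boxes were in 6 of 33 striated members (*Acta1*, *Actc1*, *Myh4*, *Myl3*, *Myl7* and *Myom1*) and in 2 of 10 non-muscle and smooth muscle members (*Myl6* and *Myl9*), beside 1.62% of the windows of all genes. MEF2 sites were in 7 of 33 striated members, among them *Myh1*, *Myh4*, *Myh8* and *Ttn*, and in 0 of 10 non-muscle and smooth muscle members, beside 1.99% of all genes. Of the shorter words, CAGCTG was in 11 of 33 striated members, 2 of 10 non-muscle and smooth muscle members and 14.7% of all genes. TATAAA was in 10 of 33, 1 of 10 and 14.3%. A match is a match of letters only.

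The authors deposited 1 value per gene and genotype, in read counts normalized for library size, which sum to 23137343 in wild-type and 23640005 in Npffr1-KO. These values are not means of the 3 libraries. Averaged together they give the mean level of all 6 libraries, and their ratio lies nearer to 1 than the libraries do where reads are few or uneven. *Ckm* shows the size of this. The authors' values were 27.5 in wild-type and 46.4 in Npffr1-KO, while the wild-type libraries held 2, 3 and 2 reads. Whole reads in each library were therefore worked out from the values for 35 of the 56 members, including all 33 with a mean of up to 100. Libraries a, b and c are wild-type and d, e and f are Npffr1-KO. The letters follow their size factors, which lay between 0.916 and 1.038, and could not be tied to sample numbers. *Npffr1* itself had 1, 0 and 5 reads in the wild-type libraries and 0 in d, e and f, a direction that matches the labels at a very low depth.

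Library d stood apart for genes of this kind. Of 3928 genes with a mean of 5 to 100, 14 (0.356%) had at least 5 times as many normalized reads in d as in the next highest library, and 7 of these were among the 24 members in that range. In the other 5 libraries the same was seen for 0 to 2 genes each, none of them a member. The mean is taken over all 6 libraries, d included, so a gene can reach this range through its reads in d. *Myh1*, *Myh2*, *Ckm*, *Myoz1* and *Myoz2* did so, with 12, 16, 14, 8 and 5 reads in the other 5 libraries together. The counts of members are thus descriptions. The tissue was adipose by its markers, since 8 of 8 adipocyte genes were abundant, from *Pparg* with an authors' wild-type value of 3864 to *Fabp4* with 156285. *Lep*, the leptin gene, had 4210 in wild-type and 8703 in Npffr1-KO.

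Per kilobase of gene length, the non-muscle and smooth muscle members were far above the striated ones. Their median wild-type value was 3678 normalized counts per kilobase, against 6.47 for the striated members and 103 for all genes listed. *Myl6*, the essential light chain of non-muscle and smooth muscle myosin, led with 18537 per kilobase, followed by the regulatory light chain *Myl12b* with 7063, *Tpm3* with 5488 and *Tpm4* with 4959. *Myl9*, the smooth muscle regulatory light chain, *Myl12a*, the actin cross-linker *Actn4* and *Tpm1* lay close together at 3970, 3699, 3678 and 3640. *Myh9* had 1817, *Actn1* 1081, *Myh11* 898, *Tpm2* 876 and *Myh10* 310. *Myh14* was the exception among the non-muscle members, at 17.8 per kilobase.

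Among the striated members, the fast and newborn skeletal light chain *Myl1* was highest, with 1066 per kilobase, although 14.5% of its stretches of 31 bases also occur in a pseudogene, *Mylf-ps*. The embryonic and atrial light chain *Myl4* came next with 212, followed by *Acta1* with 115, and the 4 troponins *Tnni3*, *Tnnc2*, *Tnnt3* and *Tnni2* lay between 78.5 and 89. *Myom1* had 86.4. For genes whose reads lay mostly in library d these values overstate the wild-type level. The mean of the 3 wild-type libraries was 1.61 per kilobase for *Ckm* in place of 19.4, and 0.648 for *Myh1* in place of 7.23. For *Tnnc2* and *Tnni2* it was 53.7 and 50.4 in place of 87.9 and 78.5, below *Tnni3*, which stayed at 87.9. Titin, the longest transcript with 91727 bases, had an authors' value of 216 but only 2.36 per kilobase.

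**Figure D1:**
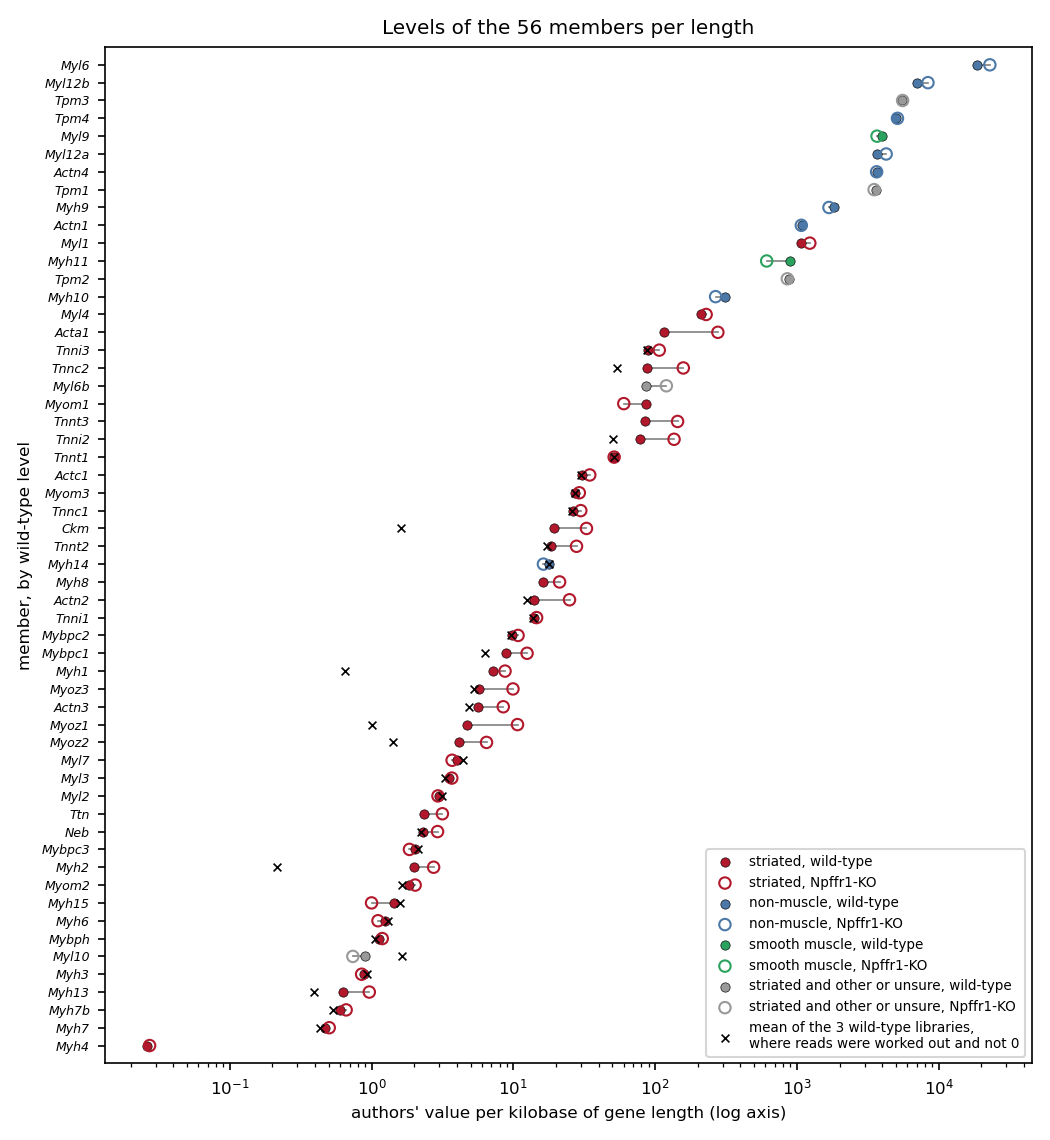
Authors' values per kilobase of gene length (log axis) for the 56 members, ordered by the wild-type value. Filled points are wild-type and open circles Npffr1-KO, colours give the class, and crosses give the mean of the 3 wild-type libraries where reads were worked out. Non-muscle, smooth muscle and tropomyosin genes fill the top, and for *Ckm*, *Myh1*, *Myh2*, *Myoz1* and *Myoz2* the cross lies well to the left of the wild-type point.

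The genes of fast skeletal fibres with reads per library showed library d most sharply. *Tnnc2*, the fast calcium sensor, had 41, 36 and 39 reads in wild-type and 341, 42 and 32 in Npffr1-KO. *Tnni2*, the fast inhibitory subunit, had 31, 38 and 34 reads in wild-type and 274, 35 and 27 in Npffr1-KO. Both subunits were thus level in 5 libraries, and in d they were 7.75 and 7.10 times the next highest library after normalization.

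*Myh1*, the heavy chain of fast IIx fibres, had 2, 6 and 4 reads in wild-type and 289, 0 and 0 in Npffr1-KO. *Myh2*, that of IIa fibres, had 0, 1 and 3 reads in wild-type and 73, 12 and 0 in Npffr1-KO. *Myh4*, the IIb heavy chain, had a single read, and it was in d. These 3 neighbours in the heavy chain cluster of chromosome 11 share much sequence. Of their stretches of 31 bases, 37.9%, 32.8% and 30.4% occur in other genes, so that the split of reads among them, and the single *Myh4* read in particular, is uncertain.

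The Z-disc calsarcin *Myoz1* had 0, 3 and 1 reads in wild-type and 54, 2 and 2 in Npffr1-KO, which is 17.7 times the next highest library in d. The fast Z-disc actinin *Actn3* had 15, 6 and 22 reads against 52, 11 and 17. The fast myosin-binding protein *Mybpc2* had 33, 36 and 38 reads against 67, 28 and 24. In both of these genes, d was the highest library by 2.30 and 1.71 times, and e and f overlapped the wild-type libraries or lay below them. *Mybph* was too low to tell, with 0 to 3 reads in every library.

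**Figure D2:**
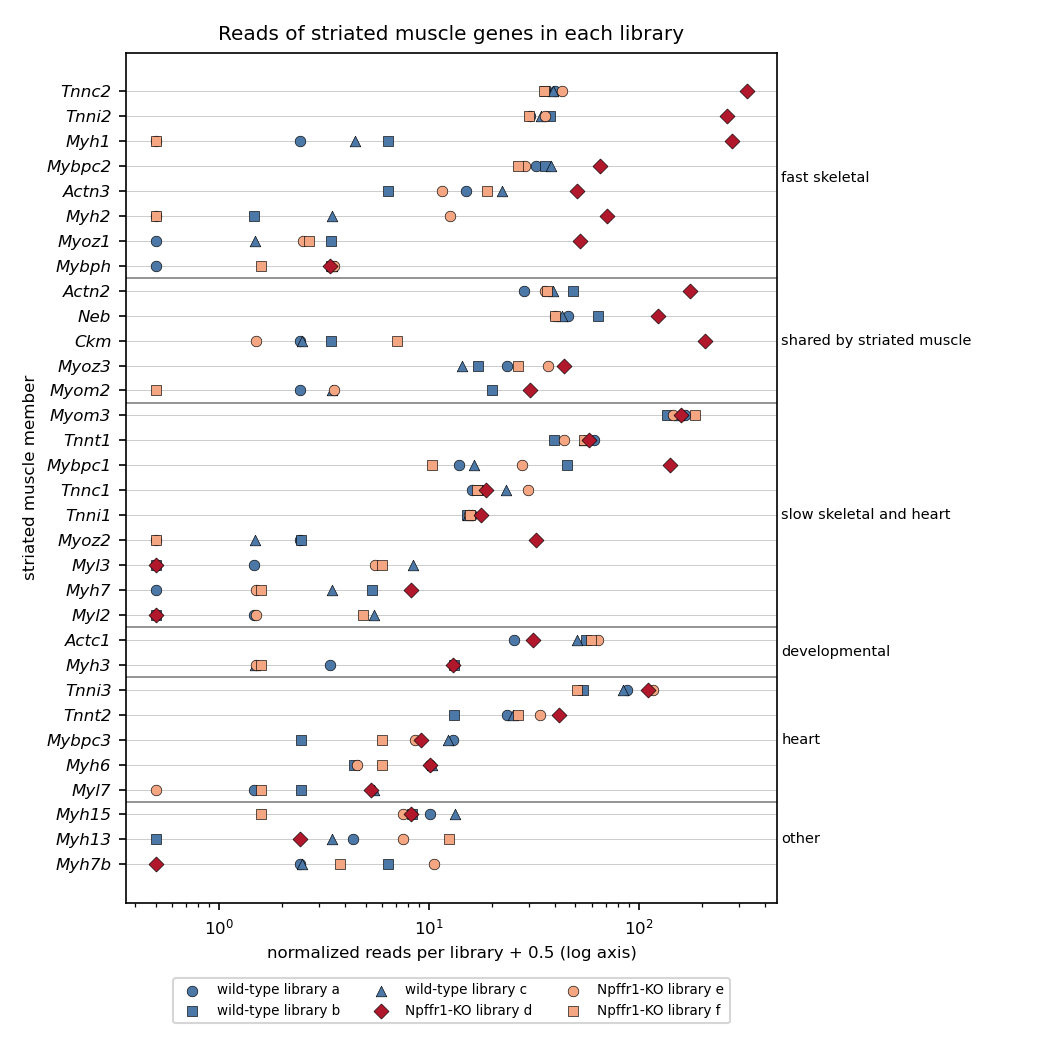
Normalized reads plus 0.5 (log axis) of the 32 striated muscle members with at least 6 reads in all, 1 point per library, grouped by the fibres that use them. The diamonds of library d stand to the right of all other libraries for most fast genes and for *Ckm*, *Actn2*, *Neb*, *Mybpc1* and *Myoz2*, while *Tnni1*, *Tnnc1*, *Tnnt1* and *Myom3* lie together.

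Genes grouped here as shared by striated muscle followed in part. *Ckm* had 2, 3 and 2 reads in wild-type and 215, 1 and 6 in Npffr1-KO. As library means these were 2.28 ± 0.566 normalized reads in wild-type and 71.6 ± 117 in Npffr1-KO (SD, n = 3), and 3.78 over the 2 Npffr1-KO libraries other than d. *Actn2*, the Z-disc actinin of all striated fibres, had 29, 49 and 39 reads against 183, 35 and 33. *Neb* had 47, 65 and 43 reads against 128, 39 and 36. In these 3 genes the Npffr1-KO libraries e and f lay among or below the wild-type libraries, apart from *Ckm* in f. The M-band gene *Myom2* had 2, 20 and 3 reads against 31, 3 and 0, with wild-type library b close to d.

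*Myoz3* behaved otherwise, with 24, 17 and 14 reads in wild-type and 45, 36 and 24 in Npffr1-KO. Its 3 Npffr1-KO libraries were all above the 3 wild-type ones, d included or not, and the mean was 17.9 ± 4.77 normalized reads in wild-type and 35.3 ± 8.64 in Npffr1-KO (SD, n = 3). The limma difference was 0.96 on the log2 scale (SE 0.369), with an adjusted p of 0.325, and it was 0.80 (SE 0.43, adjusted p = 0.558 in limma) without library d.

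Slow fibre genes split into a group with d apart and a level group. *Mybpc1*, the slow myosin-binding protein, had 14, 46 and 16 reads in wild-type and 146, 27 and 9 in Npffr1-KO. *Myoz2*, the calsarcin of slow fibres and heart, had 2, 2 and 1 reads against 33, 0 and 0. The slow troponins were level. *Tnni1* had 16, 15 and 15 reads against 18, 15 and 14, *Tnnc1* 16, 17 and 23 against 19, 29 and 15, and *Tnnt1* 63, 40 and 55 against 60, 43 and 50. The M-band gene *Myom3* had 171, 139 and 156 reads against 165, 144 and 169. Neither the genotypes nor library d stood apart in these 4 genes. *Myom3* had a mean of 157, where reads were kept only if near the authors' 2 values. A *Myom3* far apart in d could thus have been missed. The slow heavy chain *Myh7* had 0, 5 and 3 reads against 8, 1 and 1, and the slow light chains *Myl2* and *Myl3* had none in d and at most 8 elsewhere.

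Within the same libraries, the troponin subunits of fast and slow fibres had unlike spreads, a difference that was not tested. The fast subunits *Tnnc2* and *Tnni2* had a Npffr1-KO mean of 135 ± 167 and 110 ± 134 normalized reads, with SDs above the means, whereas the slow *Tnni1* had 15.9 ± 1.24 and *Tnnt1* 51.9 ± 7.56 (SD, n = 3). In wild-type these 4 genes had 37.8 ± 2.30, 33.6 ± 3.63, 15 ± 0.398 and 51.5 ± 11.2.

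In the 7 developmental and heart genes with reads, d was at most 1.24 times the next highest library. *Actc1*, the actin of heart and newborn skeletal muscle, had 26, 57 and 51 reads in wild-type and 32, 63 and 54 in Npffr1-KO, low in a and d. The embryonic heavy chain *Myh3* had 3, 13 and 1 reads against 13, 1 and 1, equal in b and d. The cardiac inhibitory troponin *Tnni3* had 91, 55 and 84 reads against 114, 115 and 46, and the cardiac *Tnnt2* had 24, 13 and 25 against 43, 33 and 24. Of the 24 members with a mean of 5 to 100, *Tnnt2* was the only one besides *Myoz3* with all 3 Npffr1-KO libraries above all wild-type ones after normalization, at 20.2 ± 6.56 against 33.6 ± 7.63 normalized reads (SD, n = 3). Its limma difference was 0.75 (SE 0.379, adjusted p = 0.458). The background for such a separation was 6.21% of the 3928 genes, against 2 of 24 members. The opposite order, 10.8% of all genes, was seen in 1 of the 24, the heavy chain *Myh15*, with 10, 8 and 13 reads against 8, 7 and 1.

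The remaining striated members were low. The cardiac *Mybpc3* had 13, 2 and 12 reads in wild-type and 9, 8 and 5 in Npffr1-KO. The heavy chain *Myh6*, which shares 29.1% of its stretches with *Myh7*, had 10, 4 and 10 against 10, 4 and 5. *Myh13* had 4, 0 and 3 reads against 2, 7 and 11, *Myh7b* 2, 6 and 2 against 0, 10 and 3, and the atrial light chain *Myl7* 1, 2 and 5 against 5, 0 and 1. Their libraries overlapped.

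Summed over the 9 fast genes with reads, d held 1112 normalized reads, and the other 5 libraries held 112 to 143. The 5 shared genes summed to 580 in d and to 100 to 151 elsewhere. The 9 slow and heart genes summed to 433 in d and 258 to 291 elsewhere. By contrast, d held 43.4 normalized reads of the 2 developmental genes, beside 28 to 68.5 elsewhere, and for the 5 heart genes it held 174, beside 74.4 to 161 elsewhere. These sums leave out the 7 striated members without reads per library. In the fast group, *Myl1* (967) and *Tnnt3* (90.5) are missing from an authors' wild-type total of 1288. *Myom1* (469), *Ttn* (216) and *Acta1* (171) are missing from 1007 in the shared group. In the developmental group, *Myl4* (187) and *Myh8* (99.2) are missing from 336.

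**Figure D3:**
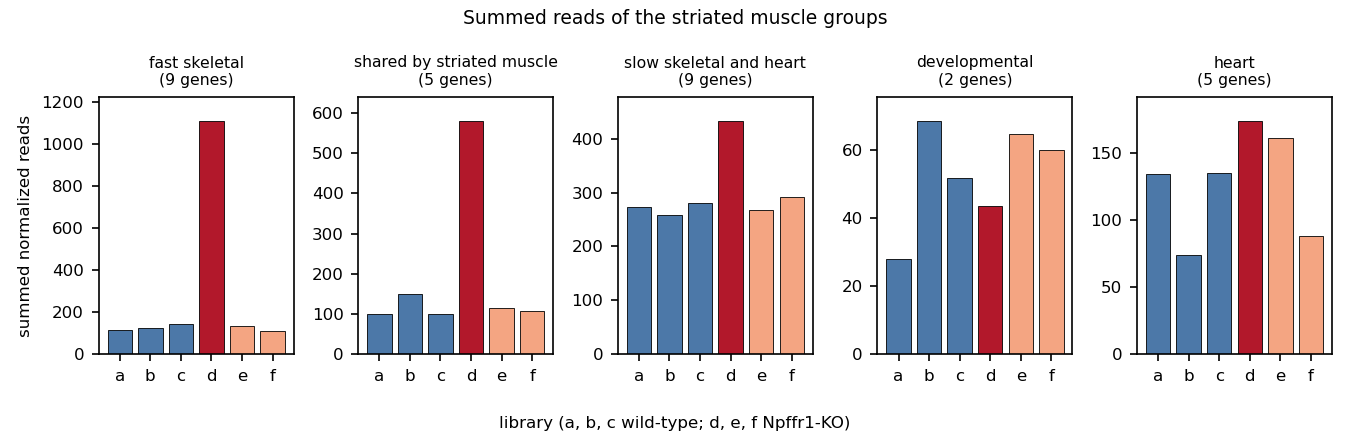
Summed normalized reads of the striated muscle members with reads worked out, 1 panel per group and 1 bar per library, each axis starting at 0. *Myl1*, *Tnnt3*, *Acta1*, *Myom1*, *Ttn*, *Myl4* and *Myh8* are not included. Library d is the tallest bar for the fast, shared, slow and heart groups, closely followed by e in the last. In the first 3 groups the other Npffr1-KO libraries e and f are level with wild-type.

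Of the 24 members with a mean of 5 to 100, 16 were highest in d, beside 19.3% of the 3928 genes. Over all 33 striated members with reads, 18 were highest in d, and 8 were there at least 5 times the next highest library (*Ckm*, *Myh1*, *Myh2*, *Myoz1*, *Myoz2*, *Tnnc2*, *Tnni2* and, by a single read, *Myh4*). The Npffr1-KO library mean was above the wild-type mean for 27 of 33, with a median log2 ratio of 0.40 after adding 0.5 to each mean. Without library d it was above for 17 of 33, with a median of 0.02. For the 24 members these counts were 20 with d, beside 44.5% of the 3928 genes, and 11 without it, beside 42.1%. *Myh1* and *Myoz2* had no read in e or f.

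The genotypes were tested with limma on log2 of the normalized reads plus 0.5, over all 3928 genes with a mean of 5 to 100. No member was called among the 24 tested, and 1, *Myoz3*, had an unadjusted p under 0.05. With limma voom the counts were again 0 and 1. Over all genes, 2 were called higher in Npffr1-KO (0.0509%) and 5 lower (0.127%), and 470 had an unadjusted p under 0.05. The differences of the 7 members at least 5 times higher in d had wide errors. *Myh1* had a log2 difference of 0.00 (SE 1.82), and -3.04 (SE 1.77) without d, where the other Npffr1-KO libraries held no read. *Myoz2* had -0.05 (SE 2.06), and -2.05 (SE 2.37) without d. *Ckm* had a log2 difference of 2.24 (SE 1.27, adjusted p = 0.520 in limma), *Myh2* 2.48 (SE 1.62), *Myoz1* 2.37 (SE 1.46), *Tnnc2* 1.05 (SE 0.582) and *Tnni2* 0.95 (SE 0.581). Without library d, the last 5 were 0.25 (SE 1.28), 0.87 (SE 1.96), 0.93 (SE 1.81), 0.03 (SE 0.34) and -0.05 (SE 0.36). The level genes were estimated more closely, with 0.08 (SE 0.394) for *Tnni1* and 0.02 (SE 0.285) for *Tnnt1*. Among the 24 members, 19 had a limma difference above 0 with all libraries and 11 without d. The fits without d kept the same 3928 genes, chosen by the mean over all 6 libraries.

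**Figure D4:**
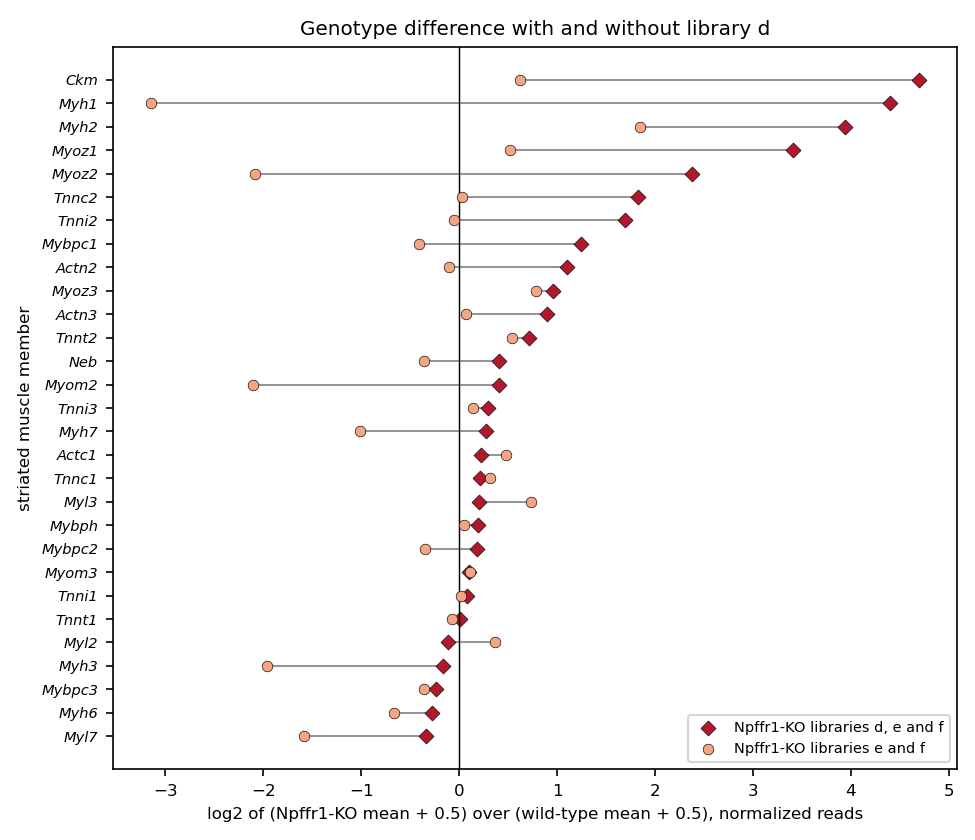
Log2 of the Npffr1-KO over the wild-type mean of normalized reads, each plus 0.5, for 29 striated muscle members with at least 6 reads. Diamonds use all 3 Npffr1-KO libraries and circles only e and f. *Ckm* moves from 4.69 to 0.62 and *Tnnc2* from 1.82 to 0.03, whereas *Tnni1*, *Tnnt1* and *Myom3* stay near 0.

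The authors' values cover the 21 members without reads per library too, as a description with no error. With a mean of at least 10, which 41 of 56 members reached, the Npffr1-KO value was at least 1.5-fold higher for 10 members, beside 2.78% of the 15309 genes at that level, and at least 1.5-fold lower for 0, beside 3.12%. All 10 were striated, of 26 striated members that entered. They were *Acta1*, *Myoz1*, *Tnnc2*, *Actn2*, *Tnni2*, *Myoz3*, *Ckm*, *Tnnt3*, *Actn3* and *Tnnt2*. Reads had been worked out for 8 of them, and all 8 were highest in library d. Because these genes were picked by a higher Npffr1-KO value, a Npffr1-KO library was favoured as the highest from the outset. Without d, the ratio of the Npffr1-KO to the wild-type library mean was 0.933 for *Actn2*, 0.963 for *Tnni2*, 1.02 for *Tnnc2* and 1.05 for *Actn3*. For the other genes with reads it was 1.47 for *Tnnt2*, 1.60 for *Myoz1*, 1.65 for *Ckm* and 1.75 for *Myoz3*. The median log2 ratio was 0.41 for the 26 striated members, -0.01 for the 11 non-muscle and smooth muscle members and 0.01 for all genes. By fibre group it was 0.60 for 9 fast genes, 0.75 for 7 shared genes, 0.09 for 5 slow genes, 0.18 for 3 developmental genes and 0.43 for the heart genes *Tnni3* and *Tnnt2*.

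Among the 7 striated members without reads per library, *Acta1* had the largest ratio of all members, with authors' values of 171 in wild-type and 410 in Npffr1-KO. *Tnnt3*, the fast tropomyosin-binding troponin, had 90.5 and 152, which is close to the ratio of its partners *Tnni2* (52.3 and 90.9) and *Tnnc2* (62.0 and 111). *Tnni2* (142441808 to 142444410) and *Tnnt3* (142498836 to 142516009) lie close together on chromosome 7 in GRCm38. Titin had 216 and 290, and *Myh8*, the perinatal heavy chain, 99.2 and 131. Of the *Myh8* stretches of 31 bases, 18.6% occur in other genes, with 10.1% in *Myh2*, and 3.72% of those of *Acta1* occur in *Actb*. The light chains *Myl1* and *Myl4* had 967 and 1118, and 187 and 202. The M-band gene *Myom1* was the only striated member with a mean of at least 10 whose value was lower in Npffr1-KO, with 469 and 326. In the annotation its first bases on chromosome 17, from 71002633, overlap the first bases of *Myl12a*, which starts at 71002878 on the other strand. Which libraries carry these differences was not worked out.

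**Figure D5:**
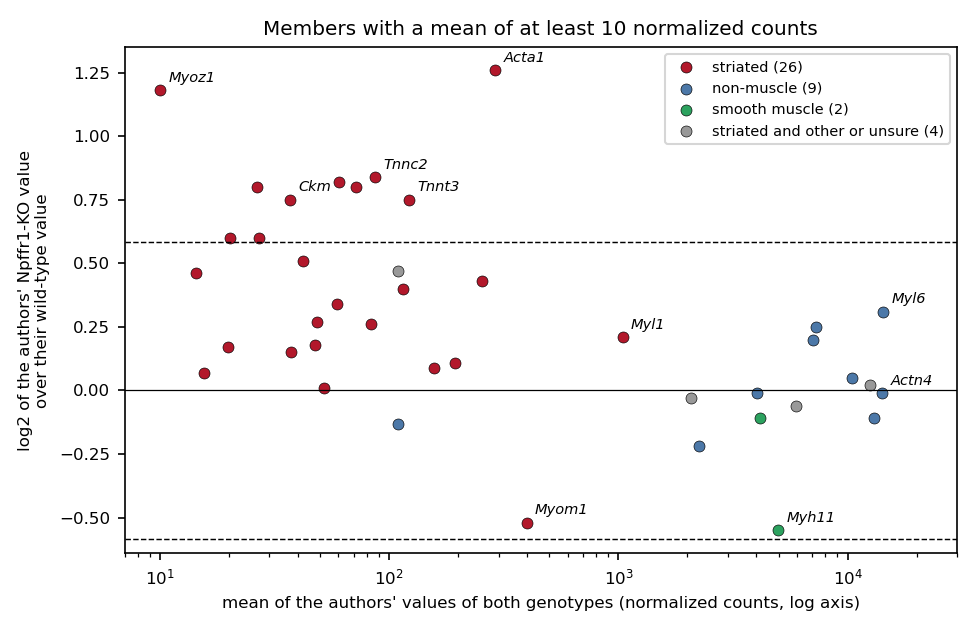
Log2 of the authors' Npffr1-KO over wild-type value against the mean of both (normalized counts, log axis) for 41 members, coloured by class, with dashed lines at 1.5-fold. Of the striated members 10 lie above the upper line, and no member lies below the lower one.

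The non-muscle members had ratios near 1. *Actn4* had authors' values of 14192 and 14084 in wild-type and Npffr1-KO, *Actn1* 4043 and 4014, *Tpm4* 10325 and 10656, and *Myh9* 13514 and 12522. *Myh10* had 2416 and 2078. The light chains were a little higher in Npffr1-KO, with 12753 and 15790 for *Myl6*, 6632 and 7889 for *Myl12b* and 6580 and 7580 for *Myl12a*. *Myl12a* and *Myl12b* lie side by side on chromosome 17, and 17.4% of the stretches of *Myl12a* occur in *Myl12b*. *Myh14* was the only one with reads per library, with 115, 118 and 117 in wild-type and 102, 106 and 98 in Npffr1-KO. After normalization these were 114 ± 2.76 and 104 ± 5 (SD, n = 3), with all 3 Npffr1-KO libraries below wild-type and d the lowest. This order was seen in 10.8% of the 3928 genes with a mean of 5 to 100, a range below *Myh14* at 109. Reads were found for 48.8% of genes with a mean of 100 to 150. The search there favoured combinations near the authors' 2 values, and with them small SDs and this order.

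The order of the non-muscle ratios followed gene length. Over the 15309 genes, the log2 ratio was lower in longer genes, with a Spearman's rho of -0.38, a description across genes, which are not independent. *Myl6*, with 688 bases, had a log2 ratio of 0.31, and 0.04 once centred on genes of like length, and *Myl12b* had 0.25 and 0.04. *Myh9*, with 7439 bases, had -0.11 and 0.04, and *Myh10* -0.22 and -0.07. Under the same centring 7 members were at least 1.5-fold higher in place of 10, among them *Acta1* at 1.16, *Ckm* at 0.64 and *Myh2*, which had not been past the fold before, at 0.59. *Tnnc2* at 0.58, *Tnnt3* at 0.55, *Tnni2* at 0.53 and *Tnnt2* at 0.43 no longer reached that fold, and *Myom1* was at -0.42.

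The smooth muscle heavy chain *Myh11* had the lowest ratio of the non-striated members, with authors' values of 5931 in wild-type and 4042 in Npffr1-KO, a log2 ratio of -0.55, or -0.43 after centring on length. Its light chain *Myl9* had 4299 and 3979. Of 14 other smooth muscle and mural cell genes, 0 passed 1.5-fold in either direction, beside 2.78% of the 15309 genes higher and 3.12% lower. All 14 had a value below wild-type, beside 7474 of the 15309 genes. Their median log2 ratio was -0.19, not centred on gene length, and their sums were 63070 and 54094. The most abundant of them were *Rgs5* with 15562 and 13644, *Acta2* with 10408 and 9588, and *Notch3* with 6895 and 5142. Their part in the *Myh11* value was not tested.

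The tropomyosins were even. *Tpm1* had authors' values of 6039 and 5813, *Tpm2* 2090 and 2042, and *Tpm3* 12375 and 12551, though 27% of the *Tpm3* stretches occur in other genes, mostly *Tpm3-rs7*. Each of these genes has striated and other transcripts that the values do not separate. *Myl6b*, a light chain of slow muscle and of non-muscle cells, had 91.3 and 127. *Myl10* had 1 read in each wild-type library and none in Npffr1-KO.

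Other genes of skeletal muscle showed library d as well, but not throughout. Of a list of 47 such genes 42 were listed, and reads were worked out for 35, of which 23 were highest in d. Of the 22 with a mean of 5 to 100, 16 were highest in d, beside 19.3% of the 3928 genes. Over all 35, 4 were in d at least 5 times the next highest library (*Trdn*, *Klhl40*, *Myog* and *Xirp2*). Only *Trdn* among them had a mean of at least 5, which it reached through its reads in d. That is 1 of the 22, beside 0.356% of the 3928 genes. *Trdn*, triadin of the calcium release complex, had 1, 0 and 1 reads in wild-type and 118, 0 and 0 in Npffr1-KO. *Mylpf*, the fast regulatory light chain, had 47, 62 and 42 reads against 267, 30 and 21. *Myog*, the regulator of myoblast differentiation, had 10 reads in d and none elsewhere, while *Myod1* and *Myf5* had 3 reads each in all. These examples were chosen after their values were seen. *Atp2a1*, the fast calcium pump, went its own way with 11, 146 and 21 reads against 85, 71 and 103, and *Smyd1*, a lysine methyltransferase of muscle, was level with 83, 48 and 66 against 57, 58 and 68.

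By group, the median log2 ratio of the authors' values was 0.15 for 8 calcium handling genes, -0.04 for 11 Z-disc and assembly genes, 0.60 for 6 energy supply genes and -0.05 for 2 genes of the neuromuscular junction. Past 1.5-fold, 3 of 27 genes at a mean of 10 or more were higher (*Cox6a2*, *Ampd1* and *Mb*, all of energy supply), beside 2.78% of the 15309 genes. Of the 27, 1, *Xirp1*, was lower, beside 3.12%. *Ckmt2*, the mitochondrial creatine kinase of muscle, was below that mean, with 0 reads in wild-type and 10, 4 and 3 in Npffr1-KO. *Cox6a2*, a muscle and brown fat subunit of cytochrome oxidase, had 8, 9 and 14 reads in wild-type and 55, 26 and 32 in Npffr1-KO. *Xirp1*, an actin-binding protein of muscle, had 65, 108 and 82 reads against 36, 46 and 32. *Cox6a2* had all 3 Npffr1-KO libraries above wild-type and *Xirp1* all 3 below. Over the 3928 genes, 6.21% and 10.8% had these orders, and on the list 2 and 1 of the 22 in that range. Neither gene passed limma, with an adjusted p of 0.129 for *Cox6a2* and of 0.154 for *Xirp1*.

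Markers of other cell types were compared as well, with no test. Of 7 brown and beige adipocyte genes with a mean of at least 10, 6 were at least 1.5-fold higher in Npffr1-KO by the authors' values. This stands beside 2.78% of the 15309 genes. The sums of all 8 were 1596 and 5363. *Cox8b* had 460 and 1567, *Ucp1* 438 and 1287, and *Cidea* 304 and 1427, while *Cox7a1* had 204 and 657 and *Fabp3* 26.5 and 151. Of these, *Cox8b*, *Cox7a1* and *Fabp3* are also used by striated muscle. Reads per library were worked out for 2 of the 8, neither of them among the 6 higher genes. Which libraries carry the values of those 6 was thus not worked out. *Dio2* had 13, 11 and 51 reads in wild-type and 54, 26 and 19 in Npffr1-KO, and *Elovl3* had 3 reads, all in d. Of 8 genes of skin and mammary epithelium, 4 were highest in d among the 7 with reads, and their summed normalized reads were 133 to 162 in wild-type and 110 to 148 in Npffr1-KO, with 140 in d. *Krt5*, chosen after its values were seen, had 0, 0 and 11 reads against 21, 0 and 0. Of 6 heart genes 4 were listed, with sums of 176 to 204 and 172 to 233 normalized reads. The epithelial and heart sums overlapped between the genotypes. The part of these cell types in the values of the members was not tested.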

How the data were processed

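Total RNA of inguinal adipose tissue was sequenced by the authors from 3 wild-type and 3 Npffr1-KO samples at postnatal day 6, grouped here by the sample titles. The submitters' processing notes name Bowtie2, RSEM and DESeq2 without versions. The genome build and the annotation were not given in the sources used here. The deposited table holds a signal made from read counts that the authors normalized by size factors, as 1 value per genotype for 19831 genes. Its columns of fold changes, p-values and adjusted p-values from the authors' own comparison were not used. A second deposited table repeats 90 of its genes and was not used.

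Genes with 1 read (585) fall on 6 values, which gave the size factor and genotype of each library. Whole reads per library were then searched for each gene up to a mean of 200 normalized counts, and kept where exactly 1 combination gave the deposited values within their printed precision, with at most 0.01 combinations due by chance (0.002 above a mean of 100). Up to a mean of 100 this held for 7589 of 7612 genes (99.7%). From 100 to 150 it held for 48.8% of genes and from 150 to 200 for 29.4%. At these levels the search favoured combinations near the authors' 2 values. Of 8116 genes with 1 solution, 5738 had authors' values that were not near equal, and the direction of the reads matched in all 5738. Because the search started from these values, the match was in part built in and is no independent check. The search and the test were tested on simulated data. Genes with more reads have no value per library, and counting error alone limits low genes.

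Genotypes were compared with limma 3.58.1 (R 4.3.3; empirical Bayes with a trend) on log2(normalized reads + 0.5) over 3928 genes with a mean of 5 to 100, with Benjamini-Hochberg adjustment and a threshold of 0.05. An exact permutation test of 3 against 3 libraries cannot go below 0.10. Ratios of the authors' values are descriptions. They count as past the fold at 1.5-fold with a mean of at least 10. Every member is named, with values given in full at a mean of at least 10 or with at least 6 reads. Of other lists, at most the 3 genes of highest mean and those past 2-fold are named by rule. The members and lists were chosen with earlier results of these data known. Positions and shared stretches of 31 bases came from GENCODE M21 and upstream stretches from RefSeq, both GRCm38. Alternatives were other folds, minimum means, pseudocounts, centrings on the median gene or on 20 classes of length, limma voom, other size factors and leaving out each library.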

Additional observations from a re-analysis of the deposited data

How the results depend on the processing

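The absence of calls among members held in every alternative run, including limma voom and each omission of a library. The number of members at least 1.5-fold higher by the authors' values was 10, and it was 16 at a ratio of 5 to 4, 2 at 2-fold, 2 with a minimum mean of 100 6 with a pseudocount of 10 and 7 when centred on genes of like length. At 5 to 4, 2 members were lower. The median log2 ratio of the striated members, 0.41, was 0.21 with a minimum mean of 1, 0.30 with 100 and 0.20 with none. The median from library means, 0.40, ranged from 0.02 to 0.65 when 1 library was left out, the lowest being without d. At 10 times the next highest library, 4 members in place of 7 stood apart in d. The omissions for this median and the 10-times limit were chosen after seeing the data.

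Over all genes, limma called 2 higher and 5 lower. Calls were 1 and 0 with genes of a mean up to 25, 1 and 1 with voom or a minimum mean of 10, and 4 higher with a pseudocount of 4 or with size factors from totals. Leaving out 1 library gave 0 to 2 higher and 0 to 3 lower. No call on a member changed, but some uncalled directions did when 1 library was left out, with limma log2 differences from -0.12 to 0.56 for *Actc1*, -0.07 to 1.09 for *Actn2*, -0.37 to 1.52 for *Mybpc1*, -0.35 to 0.29 for *Mybpc2*, -0.71 to 0.49 for *Mybpc3*, -3.04 to 1.52 for *Myh1*, -1.39 to 0.48 for *Myh3*, -2.06 to 0.90 for *Myom2*, -2.05 to 0.95 for *Myoz2*, -0.34 to 0.48 for *Neb*, -0.06 to 0.35 for *Tnnc1*, -0.05 to 1.52 for *Tnni2* and -0.16 to 0.16 for *Tnnt1*. With a pseudocount of 4, *Mybpc3* was -0.04. *Myoz2* was 0.13 with voom, 0.31 with a pseudocount of 1 and 0.57 with 4, against -0.05. Except where fewer genes or libraries entered, the cause was not tested. No paired analysis was possible because the deposited values carry no replicate numbers.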

Other observations

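The 14 genes with at least 5 times as many normalized reads in library d as in any other library were not all of muscle. Beside the 7 members and *Trdn*, they included *Myot*, a Z-disc protein of skeletal muscle, with 0, 1 and 0 reads in wild-type and 57, 0 and 0 in Npffr1-KO. *Eef1a2*, the translation elongation factor of muscle and neurons, had 2, 5 and 0 reads against 39, 1 and 0, and *Tceal7* had 2, 7 and 0 against 84, 0 and 0. The remaining 3 were *Krt25*, a hair follicle keratin, with 3, 4 and 2 reads against 28, 0 and 3, *Dsp*, desmoplakin of cell junctions, with 4, 4 and 3 against 21, 3 and 0, and *1700029H14Rik*, with 4, 5 and 2 against 31, 3 and 2. These genes outside the members were chosen by their values, and no test was made of them.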
